A study of Homo sapiens with 16 samples.

Results

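Lipoteichoic acid (LTA) of Staphylococcus aureus changed many genes within 4 h in differentiated HL-60 cells (dHL-60). In undifferentiated HL-60 cells (uHL-60) almost none of the well-measured genes moved past 2-fold. That state has 1 library a condition, so its change was not tested by itself, and many genes had too few counts there to judge. The responses of the 2 states are compared here gene by gene. HL-60 is an established human line of promyelocytic leukaemia, and differentiation moves it towards mature myeloid cells. The comparison uses 6 of the 16 libraries of the study, chosen by cell state, time and dose. They are 2 of untreated dHL-60, 2 of dHL-60 given 1 µg/ml LTA, 1 of untreated uHL-60 and 1 of uHL-60 given 1 µg/ml LTA, all taken at 4 h. The other 10 libraries are 24 h samples of both states and dHL-60 given 10 µg/ml. The sources used here do not name the agent used for differentiation. They also do not say that the replicates of a group were grown separately, so the p-values reflect only the spread between these libraries, which may be technical.

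LTA is a glycolipid polymer of the wall of gram-positive bacteria. It is sensed at the cell surface by Toll-like receptor 2, which pairs with TLR1 or TLR6 and is helped by CD14. The adaptor MYD88 and the IRAK kinases then pass the signal to the NF-κB transcription factors and MAP kinases, which switch on cytokines, chemokines and their own inhibitors.

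Total counts of the 6 libraries ran from 9653374 to 20157081, and the uHL-60 pair was the deepest. Levels below are CPM, that is, counts relative to the library total after TMM scaling. Untreated dHL-60 held some genes of the neutrophil list that uHL-60 had at low levels. ITGAM, the CD11b chain of an adhesion receptor, was at 129 and 124 against 1.13 CPM. The chemoattractant receptor FPR1 was at 148 and 100 against 0.838 CPM. CXCR2 of the same list differed less, at 41.6 and 28.6 against 21.5 CPM. Summed over the list, the levels were 11660 and 9359 CPM in untreated dHL-60 against 700 CPM in untreated uHL-60. Genes outside that list were higher too, such as CD14 at 582 and 443 against 0.641 CPM. The late-stage neutrophil markers LTF, at 0 and 0.0859 CPM, and FCGR3B, at 1.14 and 1.46 CPM, stayed near 0 in dHL-60. The promyelocyte enzyme MPO was still at 9618 and 7280 CPM there, against 22231 CPM in uHL-60. Macrophage genes were mixed. MRC1 and MSR1 had 0 counts in all 6 libraries, while CSF1R was at 72.1 and 43.5 CPM in untreated dHL-60 against 1.18 CPM in uHL-60. The 18 genes of that list summed to 2561 and 2371 CPM in untreated and 4628 and 4469 CPM in treated dHL-60. In uHL-60 they summed to 398 and 406 CPM, and their part in the results was not tested. Whether its symbols, such as CD68, were counted alike in the dHL-60 and uHL-60 columns was not tested either. If the uHL-60 libraries share a culture or library batch, its part and that of the cell state cannot be told apart.

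The difference between the responses was the log2 fold change in dHL-60 minus that in uHL-60, so a positive value means a higher response in dHL-60. It was called for 1325 of 12281 genes tested (10.8%) at an adjusted p under 0.05, with 692 higher (5.63%) and 633 lower (5.15%). Counts of called list members below are read beside these shares. The dHL-60 response itself was called for 4595 genes (37.4%), 2217 higher (18.1%) and 2378 lower (19.4%). Of the 1325 genes, 1320 also had a called dHL-60 response in the direction of the difference. Because uHL-60 has 1 library for each condition, the spread came from the dHL-60 replicate pairs, and uHL-60 was assumed to vary like them. Upper-quartile scaling moved the median of all genes from -0.03 to -0.14 and gave 567 higher and 833 lower, so the balance of directions depends on scaling, and the smallest list medians below are within that shift. DESeq2 gave 839 higher and 505 lower.

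The uHL-60 side of these differences was close to flat where it was well measured. Among 8953 genes with at least 5 CPM in uHL-60, the SD of the log2 ratio of LTA to control was 0.137. Only 5 of them (0.0558%) had a ratio past 2-fold, and 3 (0.0335%) had a 95% exact binomial interval, which covers counting error only, wholly beyond 2-fold. In dHL-60, 2075 genes were called and changed at least 2-fold, of which 988 reached 5 CPM in uHL-60. Only 6 of 24 cytokines and 2 of 18 chemokines tested reached that level. Of the 988, 986 had a uHL-60 interval within 2-fold in both directions and 0 had one beyond it. For the 513 that rose, the median log2 change was 1.42 in dHL-60 and -0.01 in uHL-60. The 475 that fell had medians of -1.26 and 0.03.

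**Figure D1:**
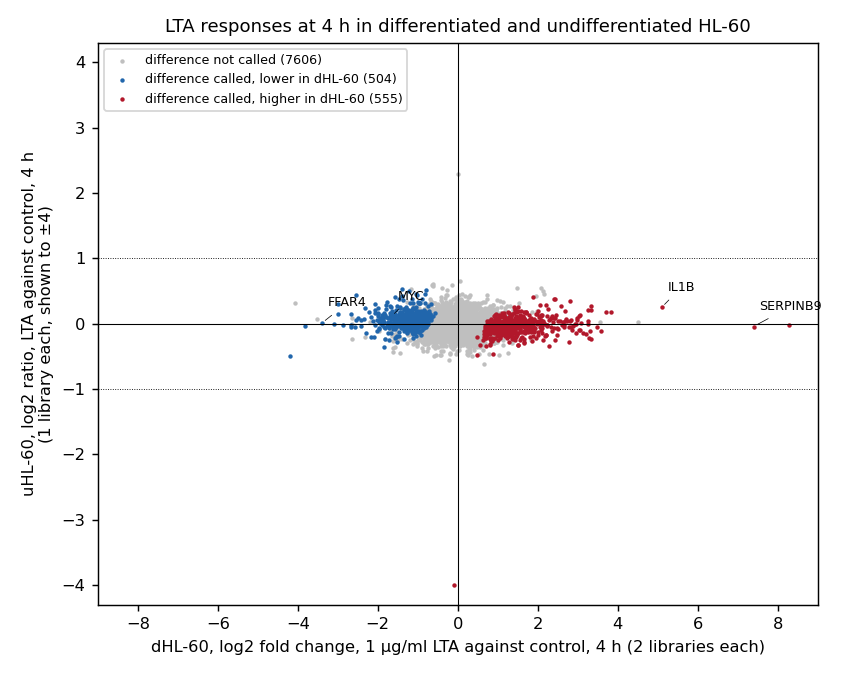
Each point is a gene with at least 5 CPM in uHL-60 whose exons are not shared with another gene. The x axis is the log2 fold change on LTA in dHL-60 (2 libraries a group) and the y axis the log2 ratio in uHL-60 (1 library a group), with dotted lines at 2-fold. The genes called higher (red) and lower (blue) spread along the x axis, while the uHL-60 ratios stay near 0; the point at the lower edge is FAM72D.

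Single libraries gave the same picture over the 8035 genes with at least 5 CPM in all 6. Any dHL-60 LTA library set against any dHL-60 control library put 803 to 1142 genes past 2-fold. The replicates of a dHL-60 group put 43 genes (controls) and 23 genes (LTA) past it, and the uHL-60 LTA library set against its control put 0. Over these genes a chi-square of counts per degree of freedom was 2.36 for that uHL-60 pair, above the sampling noise. It was 24.4 for the dHL-60 control pair and 18.1 for the dHL-60 LTA pair. Over wider gene sets it was 2.28 for the uHL-60 pair and 10.9 to 19.97 for the dHL-60 replicate pairs of all doses and times. The uHL-60 LTA and control libraries at 24 h gave 5.79 on such a wider set, and the uHL-60 controls at 4 and 24 h gave 8.55. These uHL-60 values lie below those of the dHL-60 replicate pairs, whose spread the test of the difference assumed for uHL-60.

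**Figure D2:**
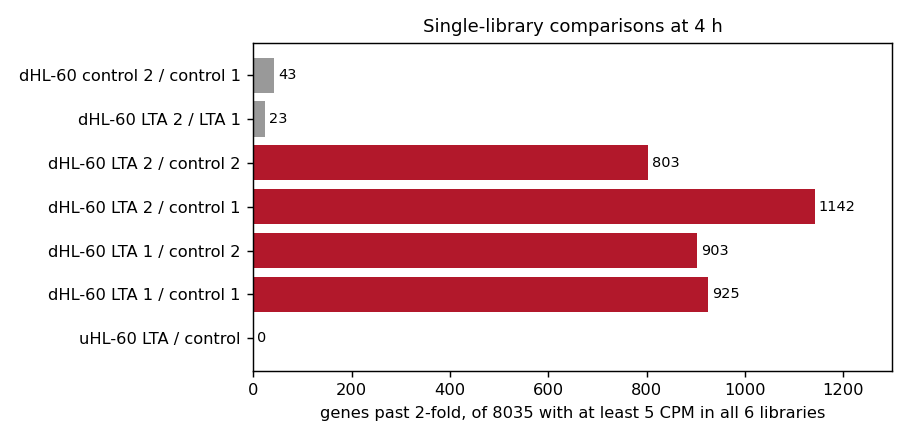
Bars count the genes past 2-fold in each comparison of 2 libraries at 4 h, out of 8035 genes. Grey bars are replicates of a dHL-60 group (43 and 23), red bars are dHL-60 LTA against control (803 to 1142), and the uHL-60 comparison is at 0.

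Of the receptors for LTA, TLR2 differed between the states. It was at 196 and 206 CPM in untreated dHL-60, 1240 and 1212 CPM after LTA, and 18.1 and 17.8 CPM in untreated and treated uHL-60. Both treated dHL-60 libraries lay above all others, and the uHL-60 ratio was 0.986 (interval 0.845 to 1.15). The difference was 2.63 ± 0.28 (log2, SE) with an adjusted p of 1.39e-04. The gene lies on chromosome 4 (GRCh38, chr4:153684280-153710637). TLR1, at 25.8 and 25.6 CPM before and 23.4 and 29.5 CPM after LTA in dHL-60, had a difference of 0.37 (adjusted p = 0.626). TLR6 had -0.63 (adjusted p = 0.425) and CD14 -0.66 (adjusted p = 0.436). CD14 was at 582 and 443 CPM in untreated dHL-60, but had only 13 counts in untreated and 26 in treated uHL-60. In the list of Toll-like receptors and their partners, 1 of 13 members tested was higher and 2 were lower. Over all genes tested the shares were 5.63% and 5.15%. The median difference of the list was -0.64, beside -0.03 over all genes. Its median dHL-60 response was only -0.21, and 4 of the 13 members had under 20 uHL-60 counts. UNC93B1, which carries the endosomal receptors to their compartment, fell from 215 and 185 to 86.7 and 79.0 CPM in dHL-60, against 159 and 172 CPM in uHL-60, a difference of -1.39 ± 0.28 (adjusted p = 0.00564).

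Among 20 genes of the MYD88 pathway, 8 were higher and 2 lower, beside 5.63% and 5.15% of all genes. The median difference was 0.78. MYD88 was at 244 and 207 CPM in untreated and 610 and 520 CPM in treated dHL-60, and at 23.9 and 26.1 CPM in uHL-60. The dHL-60 groups did not overlap, and the difference was 1.20 ± 0.25 (adjusted p = 0.00851; 0.0723 when tested against a 1.5-fold difference). MAP3K8, the kinase that feeds NF-κB signals into the ERK pathway, went from 67.1 and 44.6 to 651 and 439 CPM in dHL-60 and stood at 9.47 and 8.15 CPM in uHL-60. Its difference was 3.50 ± 0.41 (adjusted p = 2.44e-04). SIGIRR, a receptor that dampens this pathway, moved the other way, from 108 and 75.9 to 16.1 and 12.9 CPM, with 21.1 and 23.4 CPM in uHL-60 and a difference of -2.82 ± 0.37 (adjusted p = 4.89e-04). The kinases IRAK1 and IRAK4 had differences of 0.06 (adjusted p = 0.939) and 0.06 (adjusted p = 0.924), whereas the inducible IRAK2 had 4.46 ± 0.92 (adjusted p = 0.00737). IRAK2 had only 18 counts in the uHL-60 libraries together.

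Of the 22 NF-κB subunits, inhibitors and feedback genes, 17 were higher and 0 lower, and the median difference was 2.36. In dHL-60 alone 21 rose, while the uHL-60 log2 ratios of the 14 members with at least 5 CPM ran from -0.34 to 0.13. NFKBIA, the inhibitor that returns NF-κB to the cytoplasm, was at 766 and 376 CPM in untreated and 3893 and 3251 CPM in treated dHL-60, against 24.3 and 24.0 CPM in uHL-60. TNFAIP3, a ubiquitin-editing enzyme that ends the signal, was at 221 and 137 CPM before and 1962 and 1322 CPM after LTA, against 21.7 and 19.5 CPM in uHL-60. The dHL-60 groups did not overlap for either gene, and control replicate 1 stood above replicate 2 for both. The differences were 2.66 ± 0.48 (adjusted p = 0.00313) and 3.36 ± 0.50 (adjusted p = 9.88e-04).

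Members that encode NF-κB itself moved likewise. NFKB1 had a difference of 2.48 ± 0.22 (adjusted p = 5.74e-05), with 137 and 128 CPM before and 704 and 668 CPM after LTA in dHL-60 and 80.3 and 74.1 CPM in uHL-60. Its uHL-60 ratio was 0.923 (interval 0.857 to 0.993). REL was as high in untreated uHL-60 (19.97 CPM) as in untreated dHL-60 (17.4 and 19.3 CPM). It reached 97.3 and 81.6 CPM in treated dHL-60 and 15.7 CPM in treated uHL-60, a difference of 2.63 ± 0.43 (adjusted p = 0.00186). RELA was not called (0.90, adjusted p = 0.109). TRAF1, an adaptor of TNF receptors, had a difference of 2.95 ± 0.66 (adjusted p = 0.0117), with only 13 and 17 counts in the uHL-60 libraries.

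The 4 members whose RefSeq promoters (GRCh38.p14) hold a κB motif within 100 bases before the start and whose values are given above are shown, since the motif is the binding site of the factor that the list is named for. The motif searched on both strands was GGG, any 2 bases and TTTCC in a row, and capitals mark its matches. TNFAIP3 is at chr6:137867159-137867258 (plus strand), NFKBIA at chr14:35404750-35404849 (minus strand), NFKB1 at chr4:102501259-102501358 (plus strand) and REL at chr2:60881474-60881573 (plus strand).
TNFAIP3: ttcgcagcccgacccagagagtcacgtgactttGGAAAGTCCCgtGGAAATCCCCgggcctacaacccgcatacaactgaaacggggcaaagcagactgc
NFKBIA: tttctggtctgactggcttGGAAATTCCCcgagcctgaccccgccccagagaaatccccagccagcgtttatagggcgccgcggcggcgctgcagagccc
NFKB1: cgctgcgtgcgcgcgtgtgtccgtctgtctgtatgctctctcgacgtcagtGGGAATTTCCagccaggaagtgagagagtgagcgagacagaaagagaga
REL: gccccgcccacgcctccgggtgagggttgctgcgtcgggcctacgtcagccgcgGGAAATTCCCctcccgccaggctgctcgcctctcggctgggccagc
TNFAIP3 has 2 matches, which begin 67 and 55 bases before the start, and the others have 1 each, at 81 (NFKBIA), 49 (NFKB1) and 46 bases (REL). In promoters of 300 bases, 250 before and 50 after the start, the motif was in 6 of 19 list members with a promoter (31.6%). It was in 29 of 562 genes called higher (5.16%), 8 of 500 called lower (1.60%), 220 of 9720 tested (2.26%) and 523 of all 27305 promoters (1.92%). The AP-1 motif TGANTCA, the same on both strands, was in 39 of the 562 (6.94%), 30 of the 500, 457 of the 9720 (4.70%) and 2120 of the 27305 (7.76%), so its share in genes called higher was above that of genes tested and below that of all promoters. These shares are descriptions, and a match is not a shown binding site.

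Cytokines and chemokines had the largest median dHL-60 responses of the lists with more than 10 members tested, 3.57 over 24 cytokines and 3.81 over 18 chemokines. Their median differences, 3.75 and 3.58, are not ranked, since most members had too few uHL-60 counts. Only 7 cytokines and 5 chemokines were called higher and 0 lower, although 20 and 17 of them rose in dHL-60. Of these members 16 and 12 had under 20 counts in the uHL-60 libraries together, so their uHL-60 side could not be measured at this depth. IL1B, the pyrogenic cytokine interleukin-1 beta (chr2:112829751-112836779), was at 258 and 110 CPM in untreated dHL-60 and 6594 and 6103 CPM after LTA. In uHL-60 it was at 4.98 and 5.97 CPM, a ratio of 1.20 (interval 0.902 to 1.59). Both treated dHL-60 libraries lay above the other 4, and the difference was 4.85 ± 0.61 (adjusted p = 3.73e-04). TNF, at 248 and 107 CPM before and 1015 and 903 CPM after LTA in dHL-60, was at 9.32 and 7.86 CPM in uHL-60, a difference of 2.68 ± 0.50 (adjusted p = 0.00420).

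CXCL8, the main chemokine that draws neutrophils, was at 1277 and 509 CPM in untreated and 12713 and 12532 CPM in treated dHL-60, and at 10.1 and 11.4 CPM in uHL-60. Its difference was 3.65 ± 0.63 (adjusted p = 0.00258). CCL5, which attracts T cells and monocytes, was at 35.5 and 34.9 CPM before and 496 and 421 CPM after LTA, and at 11.8 and 13.4 CPM in uHL-60. Here the untreated replicates lay closely together, and the difference of 3.52 ± 0.28 had an adjusted p of 2.45e-05. OSM, a cytokine of the interleukin-6 family, had a difference of 3.61 ± 0.97 (adjusted p = 0.0293), which was not called without control replicate 2 (adjusted p = 0.0695) or LTA replicate 2 (0.0709) of dHL-60. OSM had 15 and 10 counts in untreated and treated uHL-60. CSF3 had 0 counts in both uHL-60 libraries, so no difference could be measured for it, although it went from 0.103 and 0.0859 to 30.5 and 41.8 CPM in dHL-60.

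**Figure D3:**
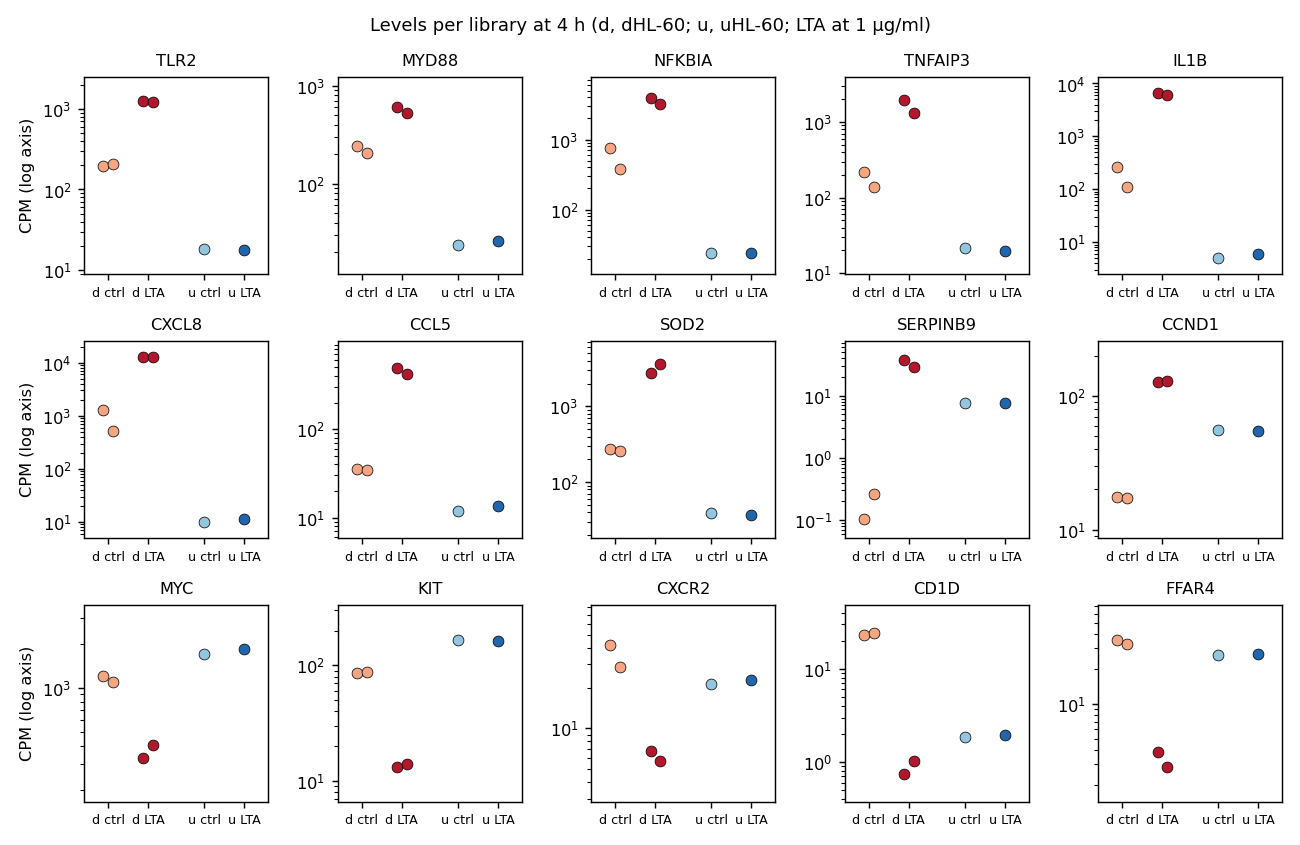
CPM (log axis) of 15 genes in each of the 6 libraries, with dHL-60 control and LTA in light and dark red and uHL-60 control and LTA in light and dark blue. In the top 2 rows the dark red points lie above the light ones, in the bottom row below them, and the blue points of a gene lie level.

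Immediate early genes and MAP kinase phosphatases had 13 of 32 members higher and 0 lower, with a median difference of 1.49. DUSP8, a phosphatase of JNK and p38, had the largest called one, 6.79 ± 0.92 (adjusted p = 9.06e-04), from 0.310 and 0.258 to 27.4 and 14.2 CPM in dHL-60, against 2.07 and 1.32 CPM in uHL-60. PTGS2, the inducible cyclooxygenase, had 3.65 ± 1.10 (adjusted p = 0.0483), which was not called without LTA replicate 2 of dHL-60 (adjusted p = 0.0686). PTGS2 had 10 and 11 counts in untreated and treated uHL-60. Of 10 inflammasome genes, 3 were higher and 1 lower, beside 5.63% and 5.15% of all genes, with a median difference of 0.03. The sensor NLRP3 went from 21.2 and 12.1 to 115 and 116 CPM in dHL-60 and from 8.19 to 10.5 CPM in uHL-60, where its ratio of 1.28 had an interval (1.03 to 1.59) above 1. The difference was 2.44 ± 0.38 (adjusted p = 0.00127). CASP1, the protease that matures interleukin-1 beta, had 1.87 ± 0.25 (adjusted p = 5.61e-04).

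Genes of cell death and survival had 11 of 28 members higher and 0 lower, with a median difference of 0.77. SERPINB9, the inhibitor of granzyme B (chr6:2887270-2903309), was nearly absent from untreated dHL-60, at 0.103 and 0.258 CPM or 4 counts in all. It reached 37.9 and 28.6 CPM after LTA, while uHL-60 held 7.74 and 7.52 CPM. Its level in uHL-60 thus lay between the untreated and treated dHL-60 levels, and the difference was 7.44 ± 0.70 (adjusted p = 9.50e-05). BCL2A1, an NF-κB target of the BCL2 family, had 2.77 ± 0.55 (adjusted p = 0.00564). MCL1, a survival protein of neutrophils, went from 258 and 251 to 789 and 819 CPM in dHL-60, with 133 and 139 CPM in uHL-60, a difference of 1.59 ± 0.22 (adjusted p = 6.62e-04). BAX, BAK1 and CASP9, which carry out mitochondrial death, had differences of -0.06, -0.10 and -0.03 (adjusted p of 0.868 or above).

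Metabolic and stress genes differed too. SOD2, the mitochondrial superoxide dismutase, was at 278 and 260 CPM before and 2772 and 3642 CPM after LTA in dHL-60, and at 39.6 and 36.7 CPM in uHL-60, a difference of 3.68 ± 0.38 (adjusted p = 1.11e-04). HIF1A, the oxygen-regulated transcription factor, had similar untreated levels, 31.5 and 40.7 CPM in dHL-60 and 37.6 CPM in uHL-60. LTA took it to 152 and 180 CPM in dHL-60 and 33.2 CPM in uHL-60, a difference of 2.38 ± 0.36 (adjusted p = 0.00108). Of 26 genes of glycolysis and hypoxia, 4 were higher and 1 lower, beside 5.63% and 5.15% of all genes. The median difference was 0.15. PFKFB3, which raises glycolytic flux, had 2.39 ± 0.29 (adjusted p = 3.41e-04) and GAPDH -0.14 (adjusted p = 0.838).

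Cholesterol and fatty acid synthesis had 5 of 24 members higher and 0 lower, with a median difference of 0.65. In dHL-60, 13 of these rose. INSIG1, the sterol-regulated brake on this pathway, went from 147 and 257 to 913 and 1344 CPM in dHL-60 and from 70.3 to 62.5 CPM in uHL-60, a difference of 2.65 ± 0.44 (adjusted p = 0.00186). STARD4, a cholesterol carrier, had 3.12 ± 0.48 (adjusted p = 0.00123). The unfolded protein and amino acid stress list had 7 of 24 higher and 0 lower, with a median of 0.62. Its leading members were the cystine importer SLC7A11, 2.70 ± 0.49 (adjusted p = 0.00332), and PPP1R15A, which restores translation after stress, 2.49 ± 0.39 (adjusted p = 0.00124).

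**Figure D4:**
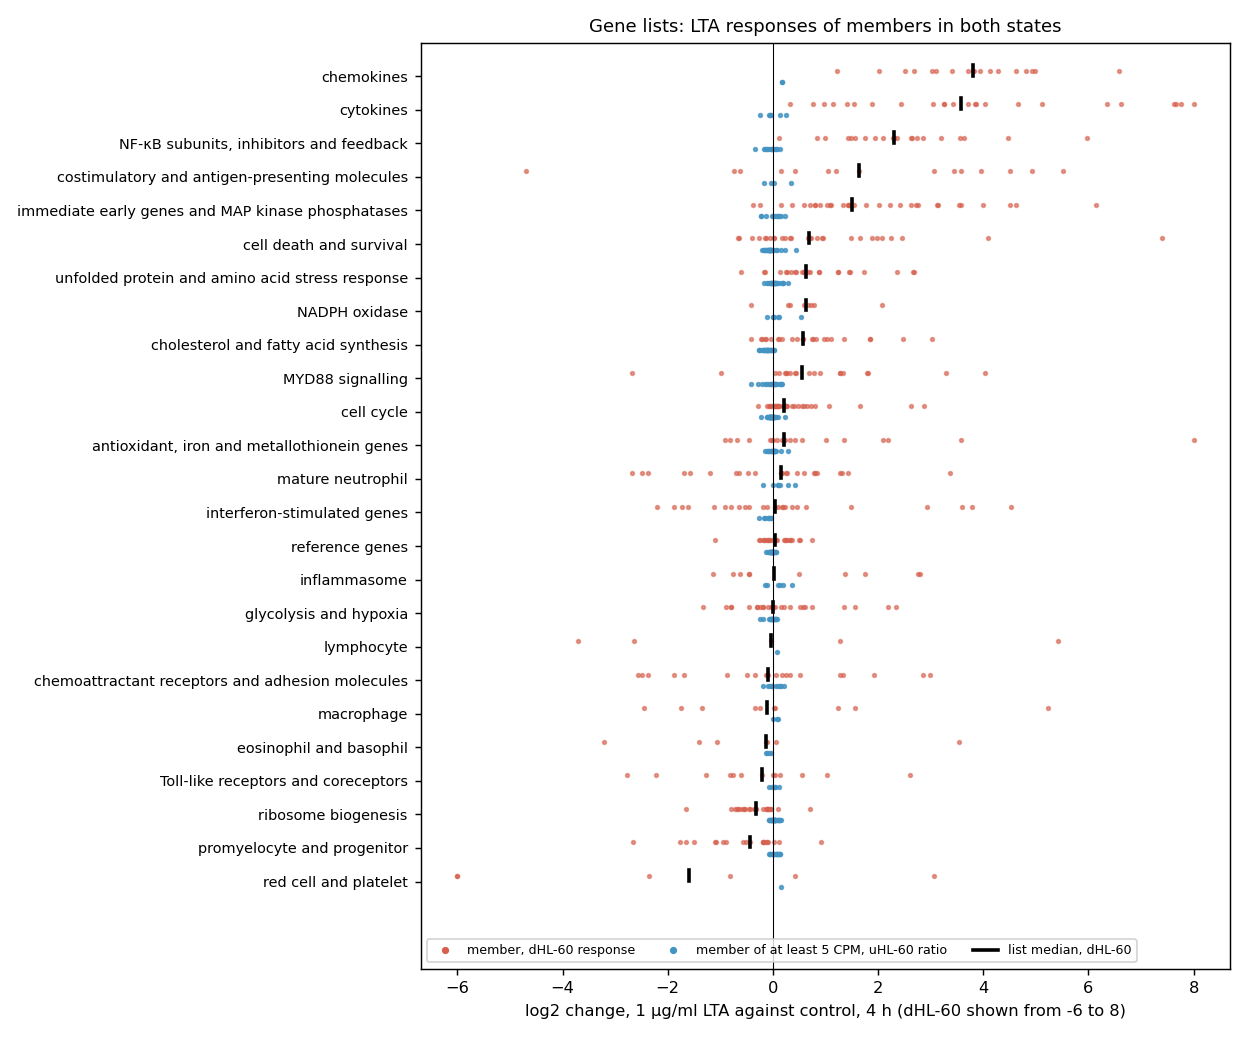
Each row is a gene list and each point a member at 4 h, with the dHL-60 log2 response in red (clipped at -6 and 8) and the uHL-60 log2 ratio in blue for members of at least 5 CPM there; black ticks are the dHL-60 medians. The red points of chemokines, cytokines and NF-κB genes reach far to the right, and the blue points lie near 0 in every row.

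In the list of promyelocyte and progenitor genes, 4 of 21 members were lower, beside 5.15% of all genes, 0 were higher and 17 were not called. The median difference was -0.45. KIT, the stem cell factor receptor, was at 86.8 and 86.9 CPM in untreated and 13.2 and 14.0 CPM in treated dHL-60. In uHL-60 it was at 167 and 162 CPM, a ratio of 0.969 (interval 0.921 to 1.02). The dHL-60 groups did not overlap, and the difference was -2.62 ± 0.31 (adjusted p = 2.44e-04). MYC, the growth-promoting transcription factor, went from 1196 and 1100 to 330 and 404 CPM in dHL-60 and from 1710 to 1854 CPM in uHL-60, a difference of -1.76 ± 0.30 (adjusted p = 0.00211). CEBPA, a master regulator of granulocyte fate, had -1.57 ± 0.26 (adjusted p = 0.00203). MPO had -0.20 (adjusted p = 0.819). Ribosome biogenesis had 3 of 26 lower, MYC among them, beside 5.15% of all genes, and 0 higher, with a median of -0.32.

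Surface receptors moved in both directions. Of 21 chemoattractant receptors and adhesion molecules, 3 were higher and 3 lower, beside 5.63% and 5.15% of all genes. The median difference was -0.10. C3AR1, the receptor for complement C3a, went from 107 and 89.5 to 686 and 735 CPM in dHL-60, against 7.50 and 7.0 CPM in uHL-60, a difference of 2.96 ± 0.30 (adjusted p = 9.76e-05). CXCR2, the receptor for CXCL8, fell from 41.6 and 28.6 to 6.85 and 5.68 CPM, while uHL-60 held 21.5 and 22.9 CPM, a difference of -2.59 ± 0.36 (adjusted p = 6.62e-04). SELPLG, the ligand of P-selectin, had -2.01 ± 0.26 (adjusted p = 4.40e-04). ITGAM had -0.55 (adjusted p = 0.453).

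CD1D, which presents lipids to T cells (chr1:158178030-158186427), went from 23.1 and 24.2 to 0.747 and 1.03 CPM in dHL-60 and was at 1.87 and 1.95 CPM in uHL-60. Its difference was -4.74 ± 0.45 (adjusted p = 6.84e-05). FFAR4, a receptor for long-chain fatty acids, had similar untreated levels in the 2 states, 35.6 and 33.1 CPM against 26.4 CPM. After LTA it was at 3.86 and 2.84 CPM in dHL-60 and 26.7 CPM in uHL-60, a difference of -3.40 ± 0.32 (adjusted p = 6.84e-05). LILRA1, a leukocyte immunoglobulin-like receptor, had -4.12 ± 0.48 (adjusted p = 2.44e-04), of which part lay in uHL-60, where it went from 9 to 22 counts, a ratio of 2.84 (interval 1.26 to 7.02). CSF1R, the receptor of macrophage colony-stimulating factor, had -3.07 ± 0.54 (adjusted p = 0.00301).

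CCND1, the cyclin D1 that drives entry into the cell cycle, had a pattern like that of SERPINB9. It was at 17.5 and 17.4 CPM in untreated and 126 and 128 CPM in treated dHL-60, and at 55.8 and 54.4 CPM in uHL-60, between the dHL-60 groups. The difference was 2.91 ± 0.25 (adjusted p = 5.14e-05). CES1, a liver and macrophage carboxylesterase, had 4.59 ± 0.57 (adjusted p = 3.60e-04), from 0.930 and 0.945 to 22.8 and 21.8 CPM in dHL-60 against 2.42 and 2.35 CPM in uHL-60. SRXN1, which repairs oxidised peroxiredoxins, had 0 counts in untreated dHL-60 and 59 after LTA, at least 10.1-fold higher against 3 counts per untreated library, with a 95% exact binomial interval of the ratio that begins at 15.96. In uHL-60 it was at 35.1 and 34.8 CPM. Whether this symbol was counted alike in the dHL-60 and uHL-60 columns was not tested.

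The test found a difference more often where uHL-60 held the gene at a higher level. Among genes that rose at least 2-fold in dHL-60, it was called for 23 of 360 (6.39%) under 0.5 CPM in untreated uHL-60, 107 of 208 (51.4%) at 0.5 to 5 CPM, 275 of 343 (80.2%) at 5 to 50 CPM and 149 of 161 (92.5%) above. For genes that fell the shares were 6.25%, 32.6%, 72.4% and 89.4%. The median SE of the difference fell from 1.80 in the lowest class to 0.256 in the highest. A gene not called at low uHL-60 counts, such as CXCL3 (3.83 ± 2.82, adjusted p = 0.445, with 1 and 2 counts), is therefore not shown to respond alike in the 2 states.

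**Figure D5:**
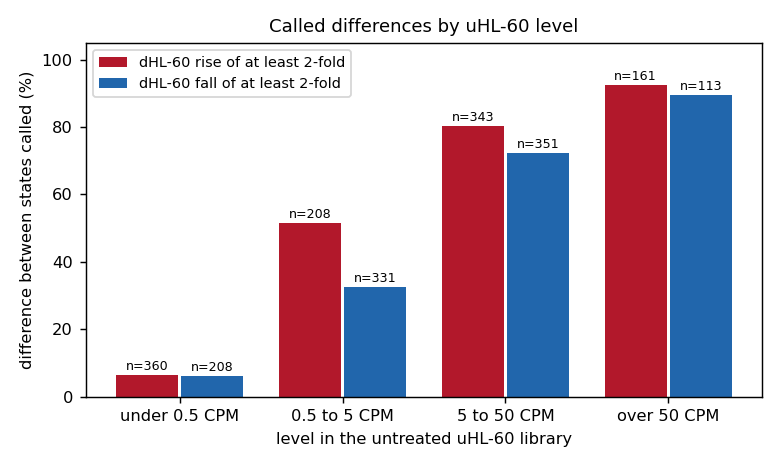
Bars give the percentage of genes with a called difference among those that rose (red) or fell (blue) at least 2-fold in dHL-60, by the level in the untreated uHL-60 library; n is the number of genes. The bars climb from 6.39% and 6.25% under 0.5 CPM to 92.5% and 89.4% over 50 CPM.

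No gene changed beyond 2-fold in opposite directions in the 2 states, with the uHL-60 interval as the measure there, and 3 did so in the same direction. CCL1, a chemokine of monocytes and T cells, went from 6.40 and 6.19 to 195 and 117 CPM in dHL-60 and from 5 to 33 counts in uHL-60, a ratio of 7.68 (interval 2.98 to 25.2). EBI3, a subunit of interleukins 27 and 35, went from 33.9 and 27.0 to 458 and 338 CPM in dHL-60 and from 0 to 11 counts in uHL-60, with an interval of the ratio that begins at 2.92. RIMBP3B, which has close copies in the genome and is uncertain, was lower after LTA in both states, from 24 to 3 counts in uHL-60. The differences of CCL1 (1.73, adjusted p = 0.628) and EBI3 (-2.45, adjusted p = 0.537) were not called.

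The same difference was tested at 24 h in libraries that the 4 h comparison does not use. There 206 genes were called (1.68%), 170 higher (1.38%) and 36 lower (0.293%). Both times called 87 genes, 6.57% of the 4 h calls and 42.2% of the 24 h calls, and 81 of them had the same sign. Of all 4 h calls, 70.6% had the same sign at 24 h, beside 60.1% of all genes tested. Of the 692 higher at 4 h, 546 kept their sign, and of the 633 lower, 389 did. The lower calls thus kept their sign about as often as any gene tested. The difference at 24 h was 3.27 for CCL5 (adjusted p = 9.95e-05), 7.54 for SERPINB9 (0.0128), 5.26 for CES1 (0.00118), 2.30 for C3AR1 (0.00219), 1.23 for TLR2 (0.0428) and -1.995 for KIT (0.00427). It was 2.20 for IL1B (adjusted p = 0.0970) and 1.84 for CXCL8 (0.198). CSF1R turned from -3.07 at 4 h to 2.31 at 24 h (adjusted p = 0.0306). The 24 h counts moved more with the processing than the 4 h counts, from 84 without LTA replicate 1 of dHL-60 at 24 h to 652 with no filter on low counts.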

How the data were processed

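The authors deposited raw counts per gene symbol, in whole numbers. Genome build GRCh38 and, in no stated role or order, the tools edgeR 3.36.0, DESeq2 1.28.0, featureCounts 2.0.1, fastp 0.20.0 and HISAT2 2.1.0 are given per the submitters' processing notes. Per the labels, libraries came from a stranded mRNA kit, and the annotation and strand setting are not given in the sources used here. The table lists 23575 symbols. The 4 uHL-60 columns follow another sort order of the symbols, which moves 1343 of them, and they were realigned: over these symbols the correlation of log2 mean counts of dHL-60 and uHL-60 went from 0.2523 to 0.8956, beside 0.9378 for the other symbols.

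The test was the two-sided quasi-likelihood F test of edgeR 4.0.16 in R 4.3.3, with TMM scaling, over all 16 libraries with 1 coefficient per group. Genes were kept at the CPM that 10 counts give in the median library in at least 2 libraries, 12281 in all, and adjusted p values are Benjamini-Hochberg over these. The uHL-60 ratios use scaled counts (log2 with a prior count of 2) and 95% exact binomial intervals, which cover counting error only. On simulated counts for the same 12281 genes and this comparison, the test recovered 26% of 2-fold and 91% of 4-fold differences. Of 125 calls, 8 (6.4%) were false. Only 200 genes were changed, all averaging at least 20 counts in each state, and uHL-60 was simulated with the spread of the dHL-60 replicates. These rates therefore do not cover genes with fewer counts, or uHL-60 libraries that vary otherwise. Alternatives used other scalings, filters, prior counts, DESeq2 1.42.0, a replicate block, fewer libraries and a test against 1.5-fold.

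The members and gene lists were chosen with earlier results of these data known. Named were the genes of LTA sensing, the 10 most positive and 10 most negative called differences with at least 20 counts in each state and 5 CPM in 1 library, the leading 2 called members of each list, and genes beyond 2-fold in uHL-60 alone or in both states. A few items are not reported here. Other list members were named after their values were seen. Symbols that share over 10% of their exon bases with another (970, GENCODE 29) or have no match there (380) were counted but not named. A list's count is read beside the share called over all genes, with no test of the list.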

Additional observations from a re-analysis of the deposited data

Results flagged for a closer look

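Each gene named by rule with a called difference between the states is listed here, because the test of the difference itself passed (log2, dHL-60 minus uHL-60 at 4 h). These values restate the test and give no further evidence.

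In receptors and signalling the differences were 2.63 for TLR2, 1.20 for MYD88, 3.50 for MAP3K8, -1.39 for UNC93B1 and -2.82 for SIGIRR. Feedback genes of NF-κB gave 3.36 for TNFAIP3 and 2.95 for TRAF1. Secreted factors gave 4.85 for IL1B, 3.61 for OSM, 3.65 for CXCL8 and 3.52 for CCL5. Early and interferon-related genes gave 6.79 for DUSP8, 3.65 for PTGS2 and 1.65 for IFIH1.

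Surface and defence genes gave 3.06 for CD83, 2.96 for C3AR1, 1.47 for FPR2, 0.73 for RAC1, 2.44 for NLRP3, 1.87 for CASP1 and 1.19 for NKG7, and the lower ones were -2.59 for CXCR2, -3.07 for CSF1R, -4.74 for CD1D and -4.12 for LILRA1. Survival, cycle and stress genes gave 7.44 for SERPINB9, 2.77 for BCL2A1, 2.91 for CCND1 and 1.88 for CCNE2. They also gave 2.70 for SLC7A11, 2.49 for PPP1R15A, 3.68 for SOD2 and 8.30 for SRXN1. Whether SRXN1 was counted alike in both states was not tested. Metabolic genes gave 3.12 for STARD4, 2.65 for INSIG1, 2.39 for PFKFB3, 2.38 for HIF1A and 4.59 for CES1. Progenitor, growth and red cell genes gave -2.62 for KIT, -1.76 for MYC, -0.87 for RRS1 and -2.58 for EPOR.

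The other genes with very large differences were MIR3945HG (7.53), TP53INP2 (5.18), MAN1A1 (4.85), DRAM1 (4.31), PRR15 (-4.87), SEMA3G (-3.69), LDLRAD4 (-3.51), FFAR4 (-3.40), KLHL31 (-3.19), DPEP2 (-3.16) and METTL7A (-3.13). MIR3945HG rests on 1 count in untreated and 171 in treated dHL-60. FAM72D (9.55) differs from the rest, since its dHL-60 counts were 62 and 56 without and with LTA while uHL-60 went from 146 counts to 0. It has near-identical copies in the genome, among which reads could be split, so its value is uncertain.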

How the results depend on the processing

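At 4 h the 1325 calls (692 higher, 633 lower) fell to 662 (420 and 242) when only the libraries of the comparison were fitted, and to 525 (309 and 216) when tested against a 1.5-fold difference. Leaving out 1 dHL-60 library at a time gave 1007 to 1323 calls, with 556 to 679 higher and 436 to 644 lower. Every other alternative run at 4 h stayed within 1.5 times, including 1719 with no filter, 1344 with DESeq2, 1275 with the uHL-60 columns as deposited and 1300 without symbols that overlap others, an alternative chosen after seeing the data. At 24 h the 206 calls (170 and 36) became 652 (491 and 161) with no filter, 398 (322 and 76) with DESeq2 and 602 (443 and 159) with only the libraries of the comparison. Leaving out 1 library there gave 84 to 218 calls, 75 to 184 higher and 9 to 34 lower. The causes were not tested. With the replicate number as a block the calls were 1442 at 4 h (759 and 683) and 355 at 24 h (288 and 67). The correlation of replicate deviations was 0.61 between the dHL-60 control and LTA groups at 4 h and ran from -0.55 over all group pairs. The labels do not say that a number marks a shared culture. No named gene changed direction. SEMA3G and RRS1 lost their calls without any 1 of the 4 dHL-60 libraries, RAC1 and KLHL31 without control replicate 2 or either LTA replicate, NKG7 without either control or LTA replicate 1, OSM without control or LTA replicate 2, and PTGS2 without LTA replicate 2. KLHL31, NKG7, OSM, PTGS2, RAC1, RRS1 and SEMA3G lost theirs with only the libraries of the comparison and against 1.5-fold, where CCNE2, FPR2 and MYD88 did too. Scaling, filter or tool ended the calls of SEMA3G and RRS1 (RLE, DESeq2), PTGS2 (upper quartile) and RAC1 (upper quartile, no filter). RRS1 and INSIG1, whose symbol is displaced there, lost it in the columns as deposited. The 563 genes changed at least 2-fold in dHL-60 with under 20 uHL-60 counts are limited by depth.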

Other observations

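Of 25 interferon-stimulated genes tested at 4 h, 3 were higher, beside 5.63% of all genes, 0 were lower, and the median difference was 0.08. Those called were IFIH1, a sensor of viral RNA, 1.65 ± 0.26 (adjusted p = 0.00141), and the guanylate-binding proteins GBP2, 3.06 ± 0.87 (adjusted p = 0.0372), and GBP5, 3.39 ± 0.93 (adjusted p = 0.0347). GBP2 went from 18.2 and 14.6 to 239 and 210 CPM in dHL-60, with 7 and 10 counts in uHL-60. GBP5 had 12 counts in the uHL-60 libraries together. ISG15 had -0.36 (adjusted p = 0.706). GBP2 and GBP5 were named after their values were seen.

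Of 35 cell cycle genes 3 were called, all higher, near the share of 5.63% over all genes. Besides CCND1 these were CCNE2, 1.88 ± 0.44 (adjusted p = 0.0154), and the cell cycle inhibitor CDKN1A, 4.33 ± 0.85 (adjusted p = 0.00536), which went from 36.9 and 28.8 to 199 and 205 CPM in dHL-60 with 8 and 2 counts in uHL-60. The median of this list was 0.23. Of 8 NADPH oxidase genes, RAC1 was called, at 0.73 ± 0.22 (adjusted p = 0.0466), a call that was lost without control replicate 2 (adjusted p = 0.0951), LTA replicate 1 (0.116) or LTA replicate 2 (0.0539) of dHL-60. The haemoglobin gene HBB was at 32.3 and 35.2 CPM in untreated and 0.498 and 0.158 CPM in treated dHL-60, with 0 counts in uHL-60.

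Low counts in uHL-60 were summed after the data were seen. Over 352 genes that rose at least 2-fold in dHL-60 and had under 20 uHL-60 counts, the sum was 777 counts in the control and 796 in the shallower LTA library, a scaled ratio of 1.19 (interval 1.08 to 1.32). Over 791 genes with as few counts and no called dHL-60 response the ratio was 1.02 (0.960 to 1.07), and over 200 genes that fell it was 1.02 (0.918 to 1.13). For 18 chemokines together it was 1.18 (1.05 to 1.33), and without CCL1 1.13 (1.00 to 1.27). For 24 cytokines it was 1.03 (0.971 to 1.09), and for the 28 cytokines and chemokines with under 20 counts 1.03 (0.717 to 1.47). Over 697 genes that rose at least 2-fold in dHL-60 and had 20 counts or more it was 0.988 (0.984 to 0.992). Over 772 such genes that fell it was 1.023 (1.019 to 1.028). The 3 further genes of dHL-60, chosen after their values were seen, had uHL-60 ratios with intervals above 1: MMP9, the gelatinase of neutrophil granules, went from 9 to 30 counts (3.88, 1.79 to 9.29), CD14 from 13 to 26 (2.33, 1.15 to 4.93) and LILRA1 from 9 to 22 (2.84, 1.26 to 7.02). NUDT4P2, a pseudogene, had 170 and 719 counts in uHL-60, a ratio of 4.92 (4.16 to 5.85), and 0 in all 4 dHL-60 libraries. Whether NUDT4P2 was counted alike in the dHL-60 and uHL-60 columns was not tested, so its ratio is uncertain. These intervals cover counting error only, and each rests on 1 library a condition.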
